A study of Mus with 4 samples.

Results

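The cytosolic ribosomal protein genes are described here across the cells of the mouse dorsal root ganglion (DRG), the cluster of sensory neurons, glia and vessels beside the spinal cord. Members were the genes whose symbol is Rpl or Rps followed by a number, with or without a short suffix, or a stalk protein (Rplp0, Rplp1, Rplp2). This gave 82 of the 31253 genes in the files, 31 of the small (40S) and 51 of the large (60S) subunit, and all 82 had a RefSeq record on the mm10 assembly. The symbol pattern misses Rpsa, a 40S protein, and by design genes such as Fau, Rack1 and Rpl36al, which also encode ribosomal or ribosome-bound proteins and are described apart. Levels rest on unique molecular identifiers (UMIs), the tags that count single captured mRNA molecules. Of the 82 members, Rpl10l had 0 UMIs in the kept cells and Rpl3l and Rpl39l were near 0. The other 79 passed the filter on low counts in every comparison. Symbols of processed pseudogenes with the suffix -ps added 0.115% of the members' UMIs. Reads that match a member and an unlisted pseudogene copy cannot be assigned with certainty.

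Each ribosome carries 1 copy of most of these proteins. The 40S subunit reads the mRNA and the 60S subunit joins the amino acids, with the stalk of Rplp0, Rplp1 and Rplp2 recruiting the elongation factors. Their mRNAs begin with a run of pyrimidines through which the mTOR pathway controls their translation as a group, and they are among the most abundant mRNAs of growing cells. Several members have a paralog, a second gene for a near-identical protein (Rpl22 and Rpl22l1, Rps27 and Rps27l, Rpl3 and Rpl3l). In sensory neurons, ribosomes work in the cell body and also in the axon, where local translation is known to take part in the response to nerve injury.

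The cells came from left lumbar 4 and 5 DRGs of 8-week-old male C57BL/6J wild-type mice, either naive (CON) or 3 days after chronic constriction injury of the sciatic nerve (CCI), in which loose ligatures compress the nerve. There were 2 libraries of each, made with the 10x Chromium 3′ kit. The sources used here do not give how many mice each library holds, so the spread between libraries may be partly technical. The labels call the cells neurons, but the files also held glia, vessel, connective tissue and immune cells. Filtering on more than 500 genes and under 20% mitochondrial UMIs kept 35113 of 37451 barcodes. CON replicate 2 stood apart, with 2613 kept cells against 10602 to 11155 in the other libraries and a median of 8352 UMIs per cell against 2508 to 4552. The libraries held 52074235 to 135009606 UMIs, and any 2 of them shared at most 31 barcodes.

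Clusters were named from marker genes, with the members left out of the clustering. A type name below therefore stands for clusters that are like that type by their markers, not for the study's own annotation. Each named type held its defining marker in every library: the neuronal splicing factor Rbfox3 at 115 to 215 counts per 1000000 UMIs (CPM) in neurons, against 3.84 to 67.8 in Schwann cells, the next highest type. Other defining markers were Fabp7 in satellite glia, Dcn in fibroblasts, Notch3 in pericytes, Ptprc in immune cells and Cldn5 in endothelial cells. Naming required the defining marker to be raised, so its presence is no separate check of the names. The named types held 3910 neurons, 6990 satellite glia, 3467 Schwann cells, 1778 fibroblasts, 1500 pericytes, 2167 immune cells and 2313 endothelial cells. A further 7870 barcodes carried neuron markers with a median of 1041 to 1363 UMIs; they are kept apart as low-UMI neuron-marker barcodes.

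The members together took 8.29% of the UMIs of all kept cells, mitochondrial genes left out. The share separated the types (the plot of share by cell type). Immune and endothelial cells were highest: in immune cells it was 14.0% in CON replicate 1, 14.5% in CON replicate 2, 15.7% in CCI replicate 1 and 16.2% in CCI replicate 2, the order in which all sets of 4 values are given below. In endothelial cells it was 14.2% and 12.9% in CON and 14.6% and 14.9% in CCI. Fibroblasts followed with 11.6% and 10.6% in CON and 11.3% and 11.5% in CCI, below both of those types in every library. Pericytes held 8.79% and 7.78% in CON and 8.51% and 8.37% in CCI. Schwann cells held 8.40% and 8.44% in CON and 8.20% and 7.75% in CCI, which overlapped the range of pericytes. Neurons held 8.0% and 7.15% in CON and 7.99% and 7.62% in CCI, which overlapped both. Satellite glia, the cells that wrap each neuron's body, were lowest of the 7 named types within every library, at 7.29% and 6.11% in CON and 6.90% and 6.64% in CCI. Erythrocyte barcodes, whose UMIs are mostly globin mRNA, held 1.94% to 3.55%, and the low-UMI neuron-marker barcodes 6.24% to 7.52%.

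**Figure D1:**
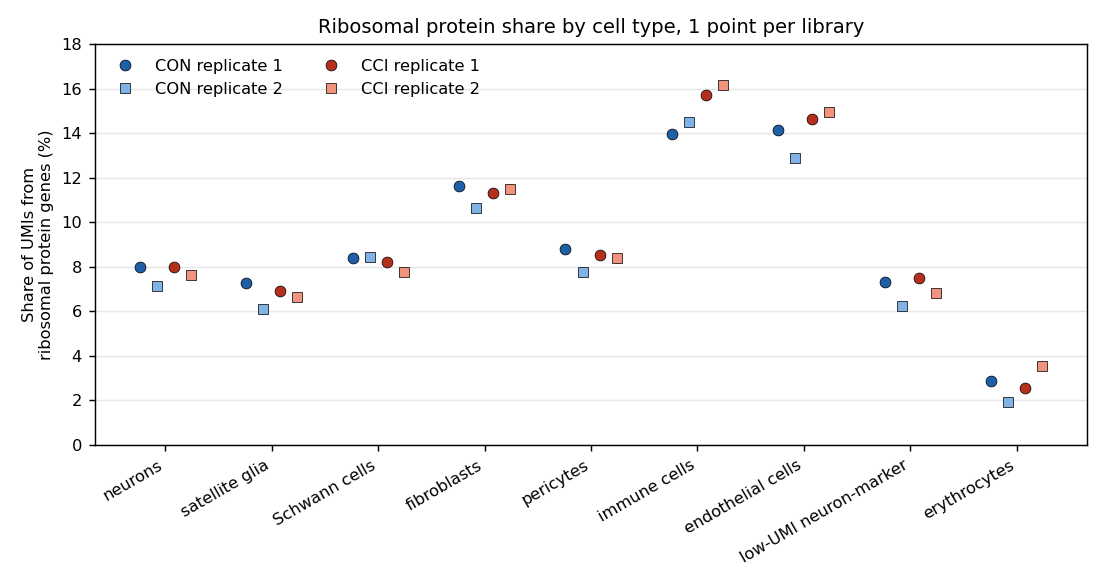
Share of UMIs (percent, y axis) from the 82 ribosomal protein genes in each marker-defined cell type (x axis), 1 point per library, blue for CON and red for CCI. Immune and endothelial cells sit between 12.9% and 16.2% and satellite glia between 6.11% and 7.29%.

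A share can be high because there is more ribosomal protein mRNA or less of the rest, and these cells differed widely in size. Neurons carried a mean of 4868 member UMIs per cell in CON and 4497 in CCI, against 703 and 777 in immune cells and 1285 and 1235 in endothelial cells. The remaining UMIs per cell were 60903 and 53176 in neurons against 4207 and 4091 in immune cells. So a neuron yielded more member UMIs than an immune cell while its share was lower. Median UMIs per cell ran from 36061 to 73825 over the libraries in neurons and from 2558 to 6508 in immune cells, and the part of depth in the order of the shares was not tested.

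The balance of the subunits also moved with cell type. The ratio of 60S to 40S member UMIs was 1.23 and 1.23 in CON and 1.30 and 1.27 in CCI in immune cells, and 1.27 to 1.32 in endothelial cells. It was 1.36 to 1.39 in fibroblasts, 1.43 to 1.48 in pericytes, 1.46 to 1.53 in satellite glia, 1.49 to 1.56 in Schwann cells and 1.49 to 1.57 in neurons. Immune, endothelial and fibroblast ranges lay below those of the other 4 types, so the types with a high share were those in which the 40S genes took a larger part. These are UMIs of different genes counted at the 3′ end, without scaling by length, so the ratio is of counted tags, not of subunits.

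Of the 78 members with at least 100 CPM in their highest type, 46 were highest in immune cells, 28 in endothelial cells and 4 in fibroblasts, on the mean CPM of 4 libraries. The lowest type was satellite glia for 55, neurons for 21 and pericytes for 2. The median ratio of highest to lowest type was 2.44. Rps27, a zinc-finger protein of the 40S subunit, spread most, with 1862 CPM in endothelial cells and 459 CPM in neurons, a ratio of 4.06. Rpl22, an RNA-binding 60S protein, had 1104 CPM in immune cells and 310 CPM in neurons, a ratio of 3.56. Rps6, the 40S protein phosphorylated downstream of mTOR, had a ratio of 3.47 between endothelial cells (1636 CPM) and satellite glia (471 CPM). Rps24 and Rps29 followed with ratios of 3.40 and 3.37, both highest in immune cells. In all 5 genes the highest type, picked on the mean of these 4 libraries, exceeded the lowest in every library.

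The mix of members in neurons differed from the mean of the 6 other types. As a part of the members' own UMIs, Rps27 in neurons was 0.55 of its mean part in the 6 other types, Rpl22 0.60, the stalk protein Rplp0 0.66 and Rps12 0.69. On the other side were Rpl22l1 at 1.74, Rpl31 at 1.58, Rpl14 at 1.44, Rpl29 at 1.41 and Rps2 at 1.38. These ratios were chosen for their size and carry no test. A mean over 6 types can hide a type that is like neurons. For Rpl22l1 the mean log2 CPM in the edgeR fits was 10.1 in fibroblasts and 9.49 in neurons. The members' share, as a mean of 4 libraries, was 11.3% in fibroblasts and 7.69% in neurons. Rpl22l1 was therefore not particular to neurons. Among the members with the most UMIs in neurons were Rpl41, Rpl13, Rps2 and Rpl9. Rpl41, which encodes a very short basic peptide, had 1692 and 2820 CPM in CON and 1800 and 2173 CPM in CCI neurons. Rpl13 had 2068, 1454, 2115 and 2061 CPM in the same order, and Rps2, the 40S protein near the mRNA entry site, 1719, 1506, 2029 and 2118 CPM. Rpl9 had 1806, 1552, 1928 and 1906 CPM. CON replicate 2 was the highest of the 4 neuron sums for Rpl41 and the lowest for the other 3 genes.

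Within neurons, subtypes were named from their markers, with the members and the injury-response genes left out of the clustering. SST neurons, the Sst and Nppb pruriceptors that signal itch, had the highest share in CON and CCI: 9.38% and 9.13% in CON and 9.14% and 9.11% in CCI. NP2 neurons, the Mrgpra3 itch neurons, held 8.84% and 8.37% in CON and 8.54% and 8.36% in CCI. Both itch types lay above the neuron-wide shares, and SST above NP2 in each library. In CCI replicate 2, NP1 and NF2 neurons lay above NP2, at 8.52% and 8.59%. NP1 neurons (Mrgprd, non-peptidergic nociceptors) held 7.97% and 7.46% in CON and 7.57% and 8.52% in CCI. Cold-sensing Trpm8 neurons held 8.21%, 7.31%, 8.33% and 7.54% and the Th-positive C-fibre mechanoreceptors 8.12%, 6.86%, 7.96% and 7.19%. PEP1 neurons (Tac1 and Trpv1, peptidergic nociceptors) held 7.97%, 6.64%, 8.25% and 7.01%. These 4 ranges overlapped one another. PEP2 neurons held 6.73% in CON replicate 1 and 7.51% and 6.74% in CCI, with 6.12% from 3 cells in CON replicate 2. NF2 neurons, the large Pvalb-positive myelinated cells, varied most, with 7.24% and 5.70% in CON and 6.81% and 8.59% in CCI. The 4 clusters that were led by injury genes and lay almost entirely in CCI held 8.26% over 334 cells of CCI replicate 1 and 7.37% over 176 cells of CCI replicate 2, within the range of the other subtypes.

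**Figure D2:**
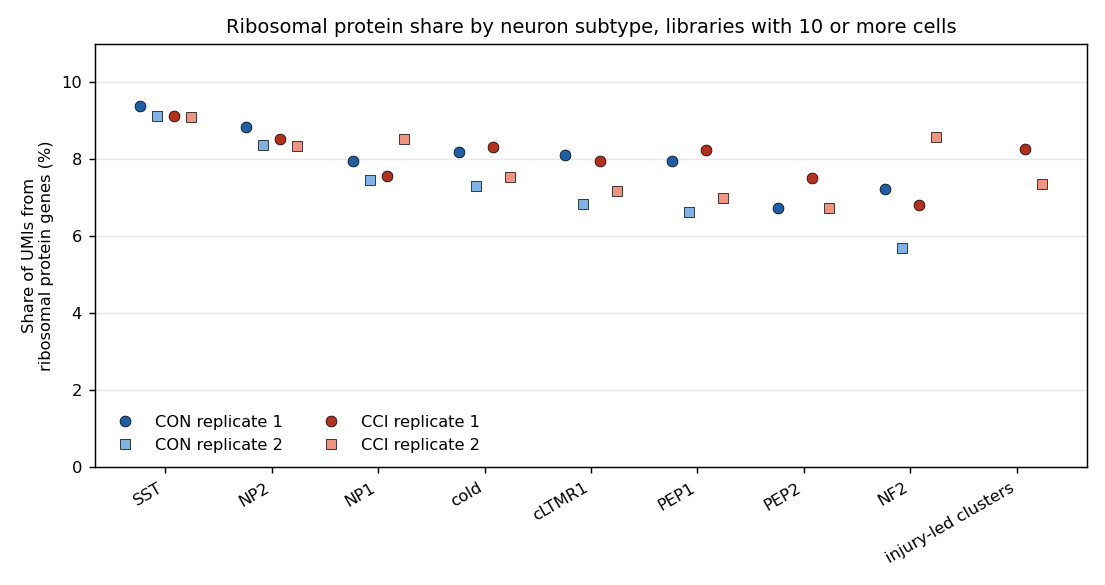
Share of UMIs (percent, y axis) from the 82 ribosomal protein genes in each neuron subtype (x axis), 1 point per library with 10 or more cells, blue for CON and red for CCI. SST neurons lie between 9.11% and 9.38%, above each other named subtype in the same library, and NF2 neurons spread from 5.70% to 8.59%.

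The 78 members with at least 100 CPM in their highest subtype differed less across subtypes than across cell types, with a median ratio of highest to lowest of 1.46. SST neurons were highest for 54 of them, and PEP2 and NF2 neurons lowest for 28 and 20. Median UMIs per cell, as means of 2 libraries, were 97195 in CON and 67044.5 in CCI for SST, against 18485.5 and 32318 for NF2. For PEP2 they were 102147 and 73270.5, with 3 cells in CON replicate 2. Median shares per cell were 9.33% and 9.27% in SST, 3.22% and 6.39% in NF2 and 4.00% and 7.10% in PEP2. The part of depth in this order was not tested. Rpl36a departed from this order: it had 963 CPM in NP2 and 431 CPM in PEP2 neurons, a ratio of 2.23. NP2 and PEP2 held 991 and 441 CPM in CON replicate 1, 1061 and 359 in CON replicate 2, 990 and 539 in CCI replicate 1 and 811 and 386 in CCI replicate 2. Rplp1 of the stalk was 2.16 times as high in SST as in PEP2 neurons, at 2114 and 979 CPM. Rpl3, which lies near the peptide-bond centre of the 60S subunit, had 1889 CPM in cold-sensing and 988 CPM in NF2 neurons. Each of these differences had the same direction in all 4 libraries, as did those of the other members among the 78. The highest and lowest subtypes were picked on the mean of these same libraries.

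Some neurons had few member UMIs for their size. Neurons with a share under 3% were 211 of 1116 in CON replicate 1 (18.9%, exact 95% interval 16.6 to 21.3), 32 of 311 in CON replicate 2 (10.3%, 7.15 to 14.2), 298 of 1521 in CCI replicate 1 (19.6%, 17.6 to 21.7) and 68 of 962 in CCI replicate 2 (7.07%, 5.53 to 8.88). The replicates of each group differed more than the groups did. In these cells the nuclear RNA Malat1 took 9.17%, 3.12%, 5.97% and 3.95% of UMIs, against 0.742%, 0.341%, 0.531% and 0.326% in the remaining neurons. Their median UMI counts were 8721, 12834, 17741 and 10421, against 42170, 95973, 61849 and 66728. The remaining neurons held a member share of 8.31% and 7.29% in CON and 8.47% and 7.74% in CCI, which still overlapped. Over all neurons with 10000 to 40000 UMIs the member share was 7.68%, 5.58%, 5.78% and 7.31% in the 4 libraries, and with 40000 to 80000 UMIs it was 8.49%, 6.24%, 8.26% and 7.66%, higher in each library and by the most in CCI replicate 1.

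Before CON and CCI are compared, the members need to be seen library by library, because many of them kept the same order of libraries in every cell type. Over the 77 members with at least 100 CPM in all 7 types, the highest library was the same in all types for 22 and the lowest for 33. Both held for 14 members, 18.2% of them, against 2.35% of the 765 other genes at that level. CON replicate 2 was lowest in every type for 22 members (28.6%, against 5.88% of the other genes) and highest for 11. The members did not range more widely than other genes: the median range over libraries, as the mean of log2(CPM + 1) deviations over types, was 0.38 for members and 0.48 for the others.

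Rpl5, which carries the 5S rRNA into the 60S subunit, had the widest range, 1.37 on the log2 scale. It had 582, 304, 489 and 408 CPM in neurons, 775, 308, 604 and 513 CPM in Schwann cells and 1176, 444, 871 and 1041 CPM in endothelial cells. In all 7 types CON replicate 1 was highest and CON replicate 2 lowest. Rps15, a 40S protein near the decoding centre, followed with a range of 1.35 and the same order at both ends. Rpl35, at the peptide exit of the 60S subunit, was lowest in CON replicate 1 and highest in CCI replicate 1 in all 7 types: 252, 398, 570 and 357 CPM in neurons and 403, 647, 717 and 461 CPM in endothelial cells. Rps27 was highest in CON replicate 2 and lowest in CCI replicate 2 in all 7 types, with 464, 633, 439 and 299 CPM in neurons. At the other end, Rpl22 and Rpl27a ranged over only 0.11 and 0.10.

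**Figure D3:**
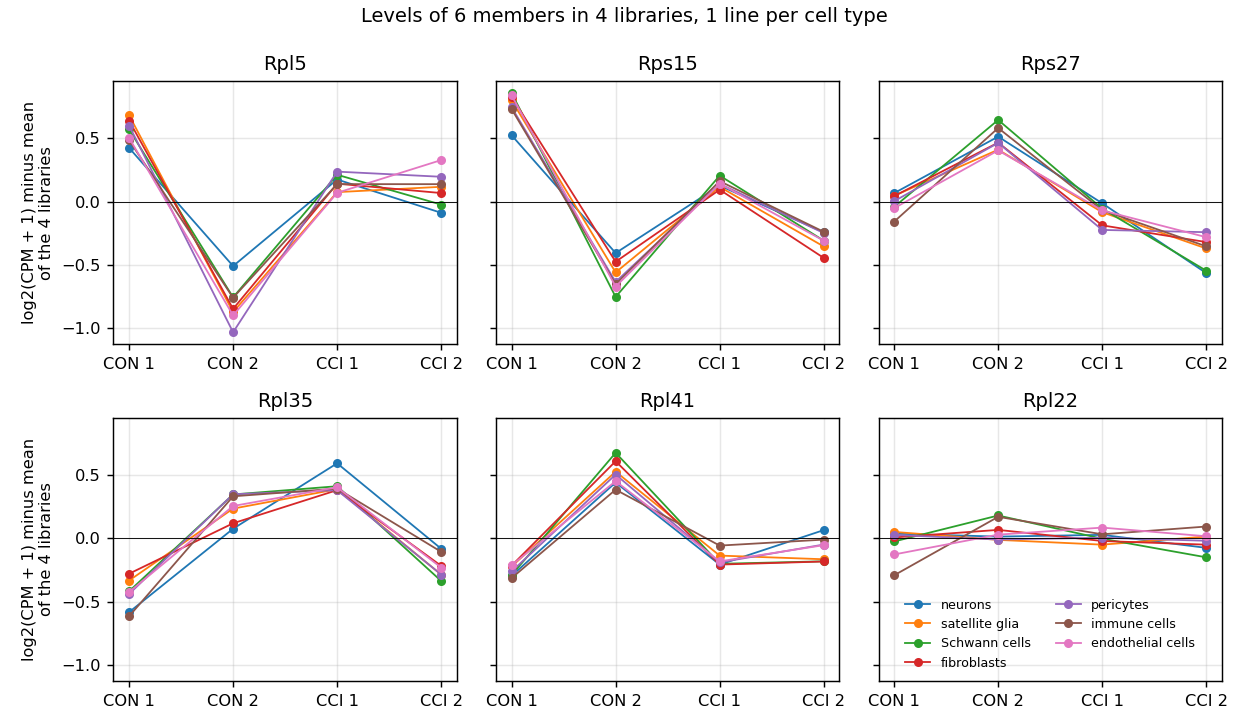
Deviation of each member's log2(CPM + 1) from its mean over the 4 libraries (y axis), drawn for Rpl5, Rps15, Rps27, Rpl35, Rpl41 and Rpl22, 1 panel per member and 1 line per cell type over the libraries (x axis). The lines of the 7 cell types run together: Rpl5 falls from CON replicate 1 to CON replicate 2 in each type, Rpl35 is lowest in CON replicate 1 and highest in CCI replicate 1, and Rpl22 stays near 0.

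CCI was compared with CON in each type on UMIs summed per library, in a fit over all genes. In no type was any of the 79 members tested called by edgeR's quasi-likelihood test at an adjusted p under 0.05. In neurons 0 members were called, while 4.56% of all 15512 genes tested were, and DESeq2 also called 0 (6.45% of all genes). At an unadjusted p under 0.05, edgeR found 2 members in neurons, Rps2 and Rps3, against 17.3% of all genes. In the other types edgeR called 0 members and 0% of all genes in satellite glia, 0% in Schwann cells, 0% in fibroblasts, 0% in pericytes, 0% in immune cells and 0% in endothelial cells. At the unadjusted threshold it found 1 member in satellite glia (3.16% of all genes), and 0 in Schwann cells (2.86%), fibroblasts (4.89%), pericytes (1.92%), immune cells (3.62%) and endothelial cells (3.38%). DESeq2 called 0 members in those types as well, with 0.248% of all genes in satellite glia, 0.0923% in Schwann cells, 0.255% in fibroblasts, 0.0976% in pericytes, 0.142% in immune cells and 0.14% in endothelial cells. With 2 libraries a group, these counts do not show that the members were at equal levels in CON and CCI.

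The members' median log2 fold change, CCI over CON, was 0.14 in neurons, where that of all genes tested was -0.02. In satellite glia it was 0.15 (all genes 0.02), in Schwann cells 0.00 (-0.03), in fibroblasts 0.25 (0.00), in pericytes 0.20 (0.02), in immune cells 0.17 (-0.05) and in endothelial cells 0.28 (0.03). Scaling by plain library size in place of TMM factors moved both medians down, to 0.06 for members and -0.09 for all genes in neurons and to 0.07 and -0.17 in fibroblasts, and turned the members' median in Schwann cells to -0.05.

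The share itself separated the groups in 3 types. In immune cells the lower CCI library exceeded the higher CON library, with a mean difference of 1.71 percentage points, from 14.2% ± 0.368 (SD, n = 2) to 15.9% ± 0.320. In endothelial cells the means were 13.5% ± 0.918 in CON and 14.8% ± 0.212 in CCI, again without overlap, and in Schwann cells it was lower in CCI without overlap, at 8.42% ± 0.0335 and 7.98% ± 0.318. Neurons, satellite glia, fibroblasts and pericytes overlapped. By the median share per cell Schwann cells overlapped too, at 8.35% and 8.12% in CON and 8.24% and 7.74% in CCI. Immune and endothelial cells did not overlap by that median. Such a separation of 2 against 2 libraries is given without a test. Within immune cells it held in the cluster led by the macrophage genes C1qa and C1qc, at 13.0% and 11.8% in CON and 13.5% and 14.5% in CCI. It did not hold in the cluster led by the neutrophil genes S100a8 and Retnlg (13.1%, 18.1%, 16.9% and 17.7%) nor in the one led by Cd209a, a gene of dendritic cells (19.4%, 19.6%, 17.2% and 20.9%). The immune sums weight these clusters differently in each library: the C1qa cluster supplied 664 of 1043 immune cells in CCI replicate 2 and 205 of 455 in CCI replicate 1. Among endothelial cells it held in the large cluster led by Flt1 (14.3% and 12.7% in CON, 15.0% and 15.1% in CCI). The small endothelial cluster led by Ccl21a separated the groups in the opposite direction, at 12.9% (196 cells) and 21.4% (22 cells) in CON against 10.5% (129 cells) and 8.5% (46 cells) in CCI.

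Single members were also set side by side without a test. Over the 77 members at 100 CPM or more in all types, 45 were above in both CCI libraries without overlap in immune cells (28.7% of all genes at that level) and below for 1 (4.39%). In endothelial cells the counts were 33 above (22.8%) and 3 below (7.36%). Neurons had 19 above (25.5%) and 5 below (17.2%), satellite glia 14 (18.5%) and 8 (11.3%), Schwann cells 8 (22.4%) and 14 (9.86%), fibroblasts 19 (15.6%) and 10 (12.8%) and pericytes 15 (13.2%) and 9 (10.7%). The members above were thus 58.4% of the 77 in immune cells and 42.9% in endothelial cells, more than the background, and in neurons, satellite glia and Schwann cells they were at or under it. Rpl4, Rpl7a and Rpl15, all of the 60S subunit, were higher in CCI without overlap in all 7 types. The share of all genes that did so is not given here, and the 7 types come from the same 4 libraries. Rpl4 and Rpl15 were lowest in CON replicate 2 in every type. Rpl7a had 547 and 435 CPM in CON and 606 and 596 CPM in CCI neurons, and 869 and 811 against 1161 and 1093 CPM in immune cells. Rpl15 had 1288 and 1084 against 1327 and 1296 CPM in neurons and 1512 and 1438 against 1906 and 1921 CPM in immune cells. Rps27 and Rpl34 were lower in CCI without overlap in 6 types, again without a share of all genes beside it. Rpl34 had 1206 and 1237 CPM in CON and 1093 and 981 CPM in CCI neurons. CON replicate 2, with the order of members described above, is 1 of the 2 control libraries in every one of these sets, and its part in them was not tested.

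In neurons the calls depended on which control library was used. Without CON replicate 1, edgeR called 5 members (9.35% of all genes): Rpl12 and Rpl17 higher in CCI, with log2 fold changes of 0.78 and 0.72 and adjusted p of 0.0131 and 0.0206, and Rps27, Rpl37 and Rps28 lower, at -0.75, -0.63 and -0.63 with adjusted p of 0.0109, 0.0391 and 0.0440. Without CON replicate 2 it called 1 member (10% of all genes), Rpl35, with a log2 fold change of 0.99 and an adjusted p of 0.000833. Over all 7 cell types, Rpl12 and Rpl17 were lowest in CON replicate 2, Rps27 and Rps28 were highest in CON replicate 2 and lowest in CCI replicate 2, and Rpl35 was lowest in CON replicate 1. With all 4 libraries Rpl35 had the largest fold change of the members in neurons, 0.57 on the log2 scale (SE 0.28, adjusted p 0.360 by edgeR).

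Sprr1a, a cornified-envelope protein that sensory neurons express after axon injury, is used here to mark injured neurons. Cells with Sprr1a at 1000 CPM or more, of all UMIs of the cell, numbered 1 of 1116 and 1 of 311 neurons in CON and 218 of 1521 (14.3%, exact 95% interval 12.6 to 16.2) and 194 of 962 (20.2%, 17.7 to 22.8) in CCI. A further 52 and 36 CCI neurons lay between 500 and 1000, just under this level, and 73 and 37 between 1000 and 2000, just over it. Among non-neuronal cells, 73 of 6925 and 111 of 7709 in the CCI libraries also reached it. The comparison is therefore within CCI, between Sprr1a-high and other neurons of the same library. Intervals here cover counting error only.

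The member share was somewhat higher in Sprr1a-high neurons: 8.37% against 7.90% in CCI replicate 1 and 7.81% against 7.55% in CCI replicate 2. The difference averaged 0.368 percentage points ± 0.146 (SD, n = 2 libraries). The high cells were also larger, with median UMI counts of 77974 and 79486 against 49062 and 55275. At 10000 to 40000 UMIs the shares were 6.49% and 8.56% in high against 5.71% and 7.12% in other neurons, at 40000 to 80000 they were 8.38% and 8.21% against 8.24% and 7.50%, and above 80000 they were 8.54% and 7.64% against 8.37% and 7.72%. The difference was largest in the low range and turned in CCI replicate 2 in the highest. Within NF2 neurons the high cells held 9.04% (14 cells) and 10.4% (30 cells) against 5.95% and 7.41%. Within the injury-led clusters, which supplied 172 of 218 and 129 of 194 of the high cells, they held 8.37% and 7.41% against 8.12% and 7.25%. In 20 high cells of CCI replicate 1 that fell in unnamed clusters, the share was 1.81% and Malat1 took 25.8% of UMIs.

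The edgeR fit with the library as a block called 49 of 79 members, all 49 higher in Sprr1a-high neurons, where it called 50% of all 14624 genes and 24.3% as higher. The called members were 18 of 31 tested 40S and 31 of 48 tested 60S genes, with log2 fold changes of 0.23 to 1.02 and a median of 0.32. The median over all 79 members was 0.25, and over all genes 0.00. The count depended on the scaling. The TMM factors were 0.935 and 0.926 for the high sums and 1.11 and 1.04 for the others, so the TMM values lie above the plain ones throughout. With plain library sizes 26 members were called, 19 higher (14% of all genes) and 7 lower (36.1% of all genes), the members' median was 0.04 and that of all genes -0.21. The 7 lower members were Rpl3, Rps27, Rpl34, Rpl10, Rps7, Rplp1 and Rps12. On both scalings the members' median lay above that of all genes. In CPM, which carries no TMM factor, 42 of the 49 called members were higher in the Sprr1a-high sum of each CCI library, and 23 were higher without overlap. Of the 77 members at a mean of 100 CPM or more, called or not, 41 were higher within each library (41.7% of all genes at that level) and 22 without overlap (30.7% of all genes), while 21 were lower within each library (46.9%) and 8 lower without overlap (34.7%). By this measure the share of members higher without overlap was close to that of all genes. Without the library block 10 members were called, all higher, with the share of all genes not given here.

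Rpl35 had the largest fold change of the members, 1.02 on the log2 scale (SE 0.09, adjusted p 3.93e-10 by edgeR). It had 863 and 531 CPM in high and 500 and 296 CPM in other neurons of CCI replicates 1 and 2. Within each group replicate 1 was the higher, as it was of the CCI libraries in every cell type. Rps27l, the paralog of Rps27 and a p53 target, had 322 and 292 against 229 and 197 CPM, a log2 fold change of 0.73. Rpl41 had 2250 and 2863 against 1692 and 1931 CPM (0.70). Rplp0, the core of the stalk, had 1384 and 1400 against 998 and 1020 CPM (0.67), and Rpl24, a 60S protein at the subunit interface, had 1629 and 1572 against 1198 and 1130 CPM (0.67). These 5 genes were picked from called members whose high sums both exceeded both others, so that separation is no added support. With plain library sizes these 5 genes kept their direction, at 0.82, 0.53, 0.49, 0.46 and 0.46. In the 15 alternatives that kept both CCI libraries, 9 members were called higher in every one: Rpl24, Rpl31, Rpl35, Rplp0, Rps13, Rps15a, Rps2, Rps27l and Rps3. The share of all genes called higher in every one is not given here, so this count has no background.

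A few members had fold changes near or below 0. Rpl3 had 1094 and 1010 CPM in high and 1395 and 1419 CPM in other neurons, with a log2 fold change of -0.21 under TMM (adjusted p 0.0756 by edgeR) and -0.42 with plain library sizes (adjusted p 0.000160). Rps27 had 362 and 246 against 458 and 318 CPM (-0.15, adjusted p 0.190, and -0.35 with plain library sizes). In each CCI library its Sprr1a-high sum was below its sum of other neurons. Rplp1 and Rplp2, which pair on the stalk that Rplp0 anchors, had log2 fold changes of 0.01 and 0.40, so the 3 stalk genes did not change by the same amount.

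**Figure D4:**
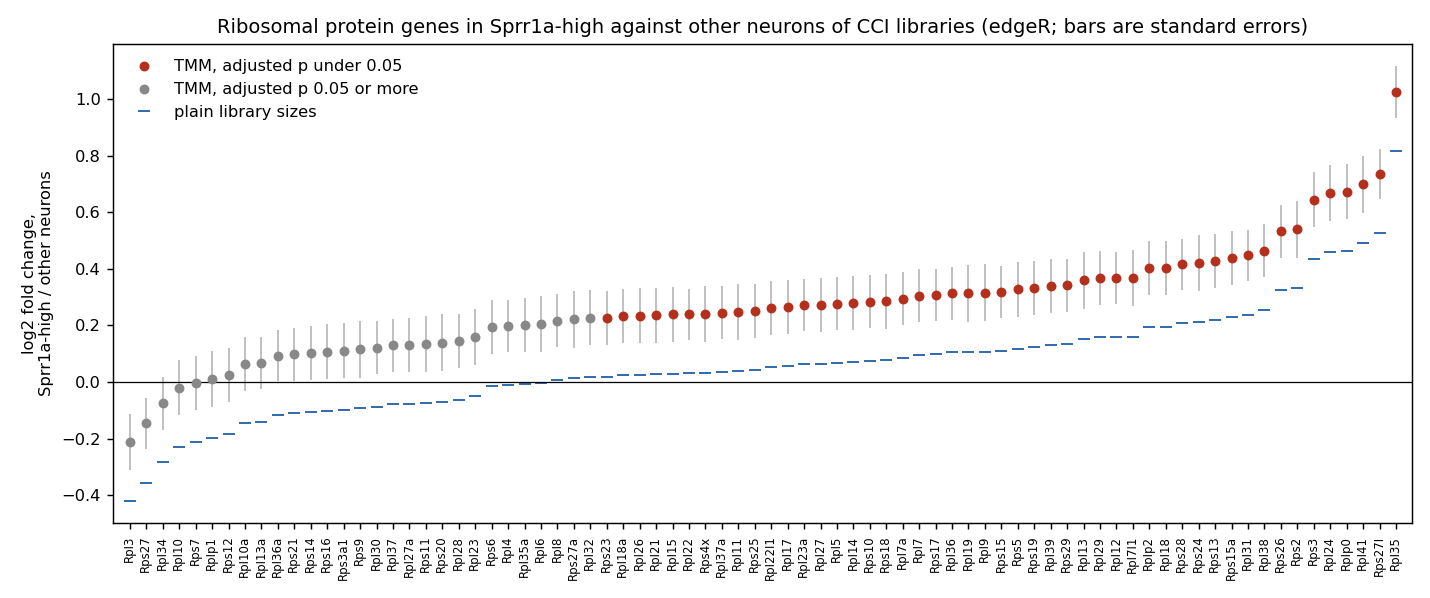
Log2 fold change (y axis) of the members shown (x axis, in order of size) between Sprr1a-high and other neurons of the CCI libraries, with TMM factors (points, red where the adjusted p is under 0.05, with bars of 1 standard error) and with plain library sizes (blue dashes). Rpl35 stands at 1.02 and Rpl3 at -0.21 with TMM; with plain library sizes Rpl3 stands at -0.42 and Rpl35 at 0.82.

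The genes that act on ribosomes were read in the same fit, from lists written with earlier results of these data known. Their values are given with TMM factors only, which placed the members' values above those with plain library sizes. Of 41 translation factors, 23 were called higher (24.3% of all genes) and 3 lower (25.7% of all genes), with a median log2 fold change of 0.27. Eif4ebp1, which blocks the cap-binding protein Eif4e until mTOR inactivates it, was at 1.55, the Eif3b scaffold of the initiation complex at 1.16, the exchange factor Eef1b2 at 1.06 and Eif4e at 1.04. The helicase Eif4a2 was lower at -0.65, as were its cofactor Eif4b and Larp1, which binds the mRNAs of ribosomal proteins. Of 30 ribosome assembly factors, 12 were called higher and 1, Dkc1, lower. Sbds, which releases the factor Eif6 from new 60S subunits, was at 0.82, and Eif6 itself, in the translation list, at 0.90. Of 77 mitochondrial ribosomal proteins tested, 21 were higher and 4 lower, with a median of 0.14. Of the genes left out by the symbol pattern, Fau (0.37) and Rpl36al (0.37) were called higher, and Rpsa (0.22) and Rack1 (0.20) were not called, with adjusted p of 0.0584 and 0.0686 by edgeR. Between CCI and CON neurons, 3 of 41 translation factors were called, Eif3b, Eif4e and Eif4ebp1, higher at 0.89, 1.01 and 1.55, where 4.56% of all genes were called in either direction. Of the assembly factors and mitochondrial ribosomal proteins 0 were called there.

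Paralogs divided the cell types and, for Rps27, the conditions (the plot of paralog shares). Rpl22l1 lies at chr3:28805508-28807424 and Rpl22 at chr4:152324436-152334082 (mm10). Of the UMIs of this pair, Rpl22l1 took 65.1% and 71.5% in CON and 69.8% and 71.9% in CCI neurons. In immune cells it took 29.5% and 23.3% in CON and 33.3% and 28.4% in CCI, and in endothelial cells 29.1%, 29.8%, 33.1% and 34.8%. Fibroblasts lay next to neurons at 54.9% to 65.8%, then pericytes at 47.1% to 56.6%, Schwann cells at 40.5% to 45.3% and satellite glia at 39.6% to 42.8%. Neurons were above each other type within every library. Both genes made the difference: Rpl22 had 318, 313, 316 and 294 CPM in neurons and 895, 1233, 1120 and 1169 CPM in immune cells, and Rpl22l1 had 595, 786, 729 and 752 CPM in neurons and 375, 375, 560 and 463 CPM in immune cells. Among neuron subtypes PEP1 held 75.4% to 80.5% and NP2 55.9% to 65.7%, with no overlap. In Sprr1a-high neurons of CCI Rpl22l1 took 70.3% and 71.8%, against 69.6% and 71.9% in other neurons, so this pair kept its balance there.

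Rps27l lies at chr9:66944624-66949522 and Rps27 at chr3:90212667-90213648. Rps27l took 28.5% and 26.0% of the pair in CON and 36.0% and 42.6% in CCI neurons. In all 7 types the CCI values were above those of CON without overlap, from a wide gap in immune cells (13.9% and 9.89% in CON, 19.4% and 22.2% in CCI) to a narrow gap in endothelial cells (11.2%, 10.3%, 13.7% and 11.9%). Schwann cells held 24.5%, 17.0%, 27.1% and 31.1% and fibroblasts 16.4%, 17.0%, 25.2% and 22.2%. Rps27 is the member with the library order noted above, highest in CON replicate 2 and lowest in CCI replicate 2 in every type, whereas Rps27l in neurons had 185, 222, 247 and 222 CPM. On its own, Rps27 separated the groups in the 6 types other than immune cells and Rps27l only in immune cells, with 226 and 258 CPM in CON and 360 and 351 CPM in CCI. Within each CCI library Rps27l took 47.0% and 54.3% in Sprr1a-high and 33.4% and 38.3% in other neurons, without overlap.

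**Figure D5:**
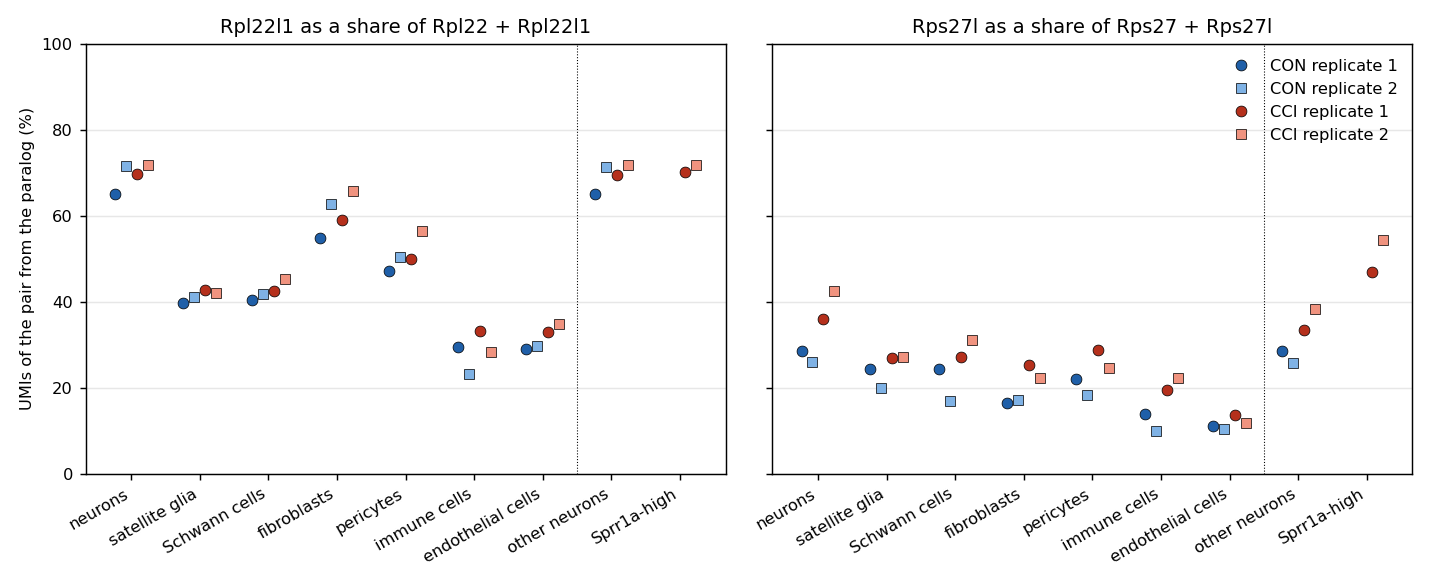
Share of a paralog pair's UMIs (percent, y axis) that came from Rpl22l1 and from Rps27l, by cell type and for Sprr1a-high and other neurons (x axis), 1 point per library. Rpl22l1 lies at 65.1% to 71.9% in neurons and at 23.3% to 34.8% in immune and endothelial cells; the Rps27l points of CCI lie above those of CON in each type.

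The other paralogs were a small part of their pairs. Rpl7l1, a homolog of Rpl7 that acts in 60S assembly, had 46.0, 47.5, 48.7 and 51.1 CPM in neurons, where Rpl7 had 788, 497, 726 and 725 CPM. It was called higher in Sprr1a-high neurons at 0.37 on the log2 scale (54.8 and 54.0 against 47.3 and 50.1 CPM, adjusted p 0.00279 by edgeR). Rpl3l, the striated muscle form of Rpl3, had 5, 2, 8 and 6 UMIs in neurons, where Rpl3 had 38239 to 113754. Rpl39l, a form of Rpl39 known from the testis, had 1, 0, 3 and 12 UMIs in neurons, and no fold is given for it. Rpl10l, the testis form of Rpl10, at chr12:66283379-66284401, had 0 UMIs in all 35113 cells. At a floor of 3 counts these levels do not show whether the genes were expressed in rare cells.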

How the data were processed

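Cells of 4 libraries (2 CON, 2 CCI) were profiled by droplet single-cell RNA-seq. The deposited matrices hold raw UMI counts per gene and barcode, which the authors made with fastp and Cell Ranger against mm10 with Ensembl 100 annotation; the study's text names a later downsampling step, but the deposited totals still differ between libraries. The labels and the study's text differ on the dissociation enzymes, which was not resolved here.

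The filter of the study was applied to barcodes (more than 500 genes, mitochondrial UMIs under 20%), and the 13 mitochondrial genes were then removed. Clustering followed the study's settings (Seurat 5.3.0, sctransform 0.4.2, R 4.3.3): SCTransform, integration on 2000 features, 10 components and resolution 0.8. The members, their pseudogenes and near relatives were left out of the features, as were injury genes within neurons. Naming a cluster needed 3 or more markers of the type raised 1.5-fold over the other clusters, with its leading genes not of another type and its defining marker among them, the last a condition set after the clusters had been seen. Neuron-marker clusters under their libraries' median UMI count were kept apart. Scrublet (scanpy 1.11.5) called 5 barcodes in all, too few to count as a working doublet call, so no barcode was removed; an alternative dropped the 5% with the highest scores.

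Levels are counts per 1000000 (CPM) of the summed UMIs of a type and library, not scaled by transcript length. UMIs summed per library and type were tested over all genes with edgeR 4.0.16 (TMM, filterByExpr, glmQLFit, glmQLFTest, Benjamini-Hochberg), with DESeq2 1.42.0 as an alternative; Sprr1a-high and other neurons were compared within CCI with the library as a block. The edgeR fit was also run on simulated counts with 200 changed genes, where in immune cells it called none of them. For CCI against CON neurons it recovered 1.54% of the 1.5-fold, 34.8% of the 2-fold and 86.2% of the 4-fold changes. Adjusted p-values compare libraries, whose animals are not given. Shares over the members carry no test; their intervals are exact binomial ones. TMM factors ran from 0.890 to 1.11. Libraries of a group differed by 12.2 to 88.0 times the sampling noise (chi-square per degree of freedom over genes), so none was counted as a duplicate.

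Members, lists and tests were chosen with earlier results of these data known. Genes named are the 5 members with the most UMIs in neurons, up to 5 called in each direction per comparison at a mean of at least 5 log2 CPM without overlap, the 5 with the largest ratio among cell types at 100 CPM or more, and all with a paralog; other names were chosen after their values were seen. Some genes that this rule names are not reported here.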

Additional observations from a re-analysis of the deposited data

How the results depend on the processing

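In satellite glia, Schwann cells, fibroblasts, pericytes, immune and endothelial cells the count of called members was 0 in each of 14 alternatives (DESeq2, other scaling factors, TMM without the members, low-count filters, stricter cells, no doublets, clusters made with the members or without integration, the replicate block and leaving out each library). The edgeR fit called 0% of all genes in these types, so these counts say nothing about stability there. In neurons it was 0 in 14 of 16. Leaving out each library in turn gave 0 to 5 members in neurons, with 5 without CON replicate 1 and 1 without CON replicate 2. Leaving 1 library in a group assumes that it varies like the other group. The replicate numbers may only be names: with the replicate block 0 members were called in all 7 types, while the count of all genes called in neurons rose from 708 to 1868, and the deviations of same-numbered libraries correlated at 0.287 to 0.529. With 2 pairs no sample can be matched to its number. For Sprr1a-high against other neurons, 49 members became 26 with plain library sizes, 10 with no library block and 15 against the other neurons of all 4 libraries without a block. Fits that left out a CCI library held 1 Sprr1a-high sum, and their results are not given. With cut levels of 500 and 2000 for Sprr1a the counts were 33 and 39, and with the injury-led clusters left out, an alternative chosen after the data were seen like the plain library sizes, 42. Shares of all genes called are not set beside these counts. The counts therefore do not show whether the members rose or fell against other genes. The Sprr1a share difference of 0.368 percentage points was 0.211 with stricter cells, 1.11 in neurons with 10000 to 40000 UMIs and 0.969 with the injury-led clusters left out; the cause was not tested. Leaving out libraries gave 0.265 to 0.471 there. For CCI minus CON it gave 1.45 to 1.97 percentage points in immune, 0.625 to 1.92 in endothelial and -0.666 to -0.216 in Schwann cells, and ranges across 0 in neurons (-0.194 to 0.657), satellite glia (-0.518 to 0.665), fibroblasts (-0.214 to 0.776) and pericytes (-0.350 to 0.658). Summed UMIs per library were lowest in fibroblasts of CON replicate 2 (358123 from 45 cells), against 28628454 or more in neurons, so the tests in the smaller types rest on less depth.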

Other observations

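Barcodes that no marker list named had a member share of 8.61% and 8.60% in CON and 7.86% and 8.27% in CCI, lower in CCI without overlap, and they held 1119, 392, 1261 and 1895 cells. In CON, 4 neurons fell in the injury-led clusters, 3 in replicate 1 and 1 in replicate 2, with a share of 8.93% and 8.38%.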
